A study of Mus musculus with 2 samples.

Results

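The brown fat thermogenic genes described here are the uncoupling protein Ucp1, the lipid droplet protein Cidea, the respiratory chain subunits Cox8b and Cox7a1, the coactivator Ppargc1a, the regulator Prdm16, the elongase Elovl3, the deiodinase Dio2, the transcription factor Zic1 and the receptor Adrb3. They were chosen by name, from earlier results on these same libraries, so their levels are a description. All 10 were found among the 55536 annotated genes of the deposited tables, 22015 of which are nuclear and protein-coding. The libraries are total RNA-seq of whole adrenal gland from female B6CASTF1/J mice, a cross of C57BL/6J with CAST/EiJ, at 36 days of age. The input was 300 ng of RNA a library, and synthetic ERCC RNAs were added as a control. The labels name no treatment and no engineered allele, and the 2 libraries form 1 group, so no comparison of conditions and no test were possible. The labels number them as biological replicates 1 and 2, whereas the descriptions of the libraries name 1 animal number for the pair, with a shared donor identifier. An SD below therefore covers the spread between these 2 libraries, which may be technical (n = 2 throughout).

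Brown adipocytes burn fatty acids in mitochondria to make heat. Noradrenaline from sympathetic nerves acts on the beta-3 adrenergic receptor and raises cAMP, which releases fatty acids from lipid droplets and switches on thermogenic genes. The fatty acids open the uncoupling protein, which lets protons return across the inner mitochondrial membrane without making ATP. In mice, depots of brown fat lie between the shoulder blades and around the kidney and adrenal gland. Ucp1 is made by brown adipocytes and by beige adipocytes, the inducible cells of other depots. In a whole-tissue sample, fewer cells of a type and less RNA per cell cannot be told apart.

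The gene tables held 38701795 expected counts in replicate 2 and 35684781 in replicate 1. The label of the tissue held against its markers, as 8 of 8 adrenal cortex genes and 8 of 8 chromaffin cell genes reached 1 TPM in both libraries. They were led by Hsd3b1, Star and Cyp21a1 and by Chgb, Chga and Th. Endothelial genes were detected for 8 of 8, led by Plvap, Egfl7 and Emcn, and kidney genes for 0 of 6, the highest being Aqp2 at 0.23 TPM. TPM, counts scaled by transcript length and by the library, allow levels of different genes to be compared. Of the marker lists used here, the skeletal muscle genes differed most between the libraries. The 18 muscle genes summed to 5.92 TPM in replicate 2 against 411.8 TPM in replicate 1, and the 6 liver genes to 3.68 TPM in replicate 2 against 32.6 TPM in replicate 1, where Alb was highest. The 15 general adipocyte markers, among them Adipoq and Fabp4, summed to 3194 TPM in replicate 2 against 3108 TPM in replicate 1.

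The proximal promoters of 4 of these genes are shown. Those of Ucp1, Dio2 and Ppargc1a were picked because all 3 were lower in replicate 2, although the deposited TPM intervals of Ppargc1a overlapped. Cox8b was picked because it was the highest gene and close in both libraries. RefSeq (GRCm38.p6) promoters, from 250 bases before to 50 bases after the start, were used for 7 of the 10 genes. Those of Cidea, Elovl3 and Adrb3 were not searched, so the motif tallies leave these genes out. The letters are given 5′ to 3′ on the strand of the gene. Capitals mark TGACG or its reverse complement (the core of the cAMP response element, which also lies inside the full element TGACGTCA), AGGTCA (the core of nuclear receptor sites), TATAAA (the TATA box) and CCAAT, each searched on both strands.
Ucp1, chr8:83290098-83290397, plus strand: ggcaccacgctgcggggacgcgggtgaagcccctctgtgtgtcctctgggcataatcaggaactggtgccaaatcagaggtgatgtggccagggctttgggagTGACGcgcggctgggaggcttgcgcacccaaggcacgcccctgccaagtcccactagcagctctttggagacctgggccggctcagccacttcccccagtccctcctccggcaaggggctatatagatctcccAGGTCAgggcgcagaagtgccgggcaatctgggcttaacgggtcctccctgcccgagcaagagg
Cox8b, chr7:140900397-140900696, minus strand: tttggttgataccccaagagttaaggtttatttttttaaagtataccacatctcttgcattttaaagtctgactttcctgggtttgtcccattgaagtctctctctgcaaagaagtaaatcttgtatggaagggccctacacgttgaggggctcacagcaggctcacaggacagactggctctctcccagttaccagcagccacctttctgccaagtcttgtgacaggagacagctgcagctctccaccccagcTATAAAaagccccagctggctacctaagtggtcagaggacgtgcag
Ppargc1a, chr5:51567676-51567975, minus strand: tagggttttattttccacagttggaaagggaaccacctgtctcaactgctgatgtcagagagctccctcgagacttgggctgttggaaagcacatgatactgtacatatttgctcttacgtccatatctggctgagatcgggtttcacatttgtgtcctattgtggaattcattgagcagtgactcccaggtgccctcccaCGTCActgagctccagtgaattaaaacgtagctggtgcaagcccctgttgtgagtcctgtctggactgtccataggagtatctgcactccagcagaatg
Dio2, chr12:90738989-90739288, minus strand: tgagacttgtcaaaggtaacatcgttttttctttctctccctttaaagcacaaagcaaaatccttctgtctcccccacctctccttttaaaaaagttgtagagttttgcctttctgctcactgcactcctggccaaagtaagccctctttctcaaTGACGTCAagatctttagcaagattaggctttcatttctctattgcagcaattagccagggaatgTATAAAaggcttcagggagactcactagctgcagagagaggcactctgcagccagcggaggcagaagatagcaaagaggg

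Among the 7 promoters searched, the full cAMP response element was in that of Dio2 alone, from base -95, and 1.79% of all 32851 promoters held it. Bases of Dio2 are counted from the RefSeq start. Its window, from 90738989 to 90739288, lies wholly upstream of the GENCODE M21 gene, which starts at 90738438 on the minus strand. The core TGACG was in those of Ucp1 (from base -147), Ppargc1a (from -49, on the opposite strand) and Dio2, and in 20.8% of all promoters. AGGTCA stood in that of Ucp1 from base -14 and in 16.3% of all promoters. TATAAA stood in those of Dio2, from base -30, and Cox8b, from base 5, and in 13.6% of all promoters. CCAAT was found for Cox7a1, Prdm16 and Zic1 and in 37.4% of all promoters. A match of letters is no evidence of binding, and RNA is the only readout here. Any link between the core TGACG and a lower level in replicate 2 was not tested. Elovl3, also lower in replicate 2, was not searched.

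Of the 10 genes, 9 reached 1 TPM in both libraries, and the same bar was passed by 53% of nuclear protein-coding genes. The levels fell into 3 tiers. Cox8b, Ucp1, Cidea and Cox7a1 stood above 120 TPM in each library. Adrb3, Elovl3 and Dio2 lay between 5.5 and 12.7 TPM, and Ppargc1a and Prdm16 between 1.51 and 3.49 TPM. Zic1 was listed at 0 in both libraries. The median of the 10 genes was 11.3 TPM, beside 10.3 TPM over all detected nuclear protein-coding genes. The order was the same in both libraries, from Cox8b through Ucp1, Cidea, Cox7a1, Adrb3, Elovl3, Dio2 and Ppargc1a to Prdm16. Neighbours in that order were not all apart beyond their spread. Cox8b averaged 325.2 ± 2.27 TPM and Ucp1 288 ± 44.2 TPM, and in replicate 1 their deposited TPM intervals overlapped. Elovl3, at 9.92 ± 2.65 TPM, lay about 1 SD from Adrb3, at 12.6 ± 0.184 TPM, and within the summed SDs of Dio2, at 6.86 ± 1.92 TPM.

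**Figure D1:**
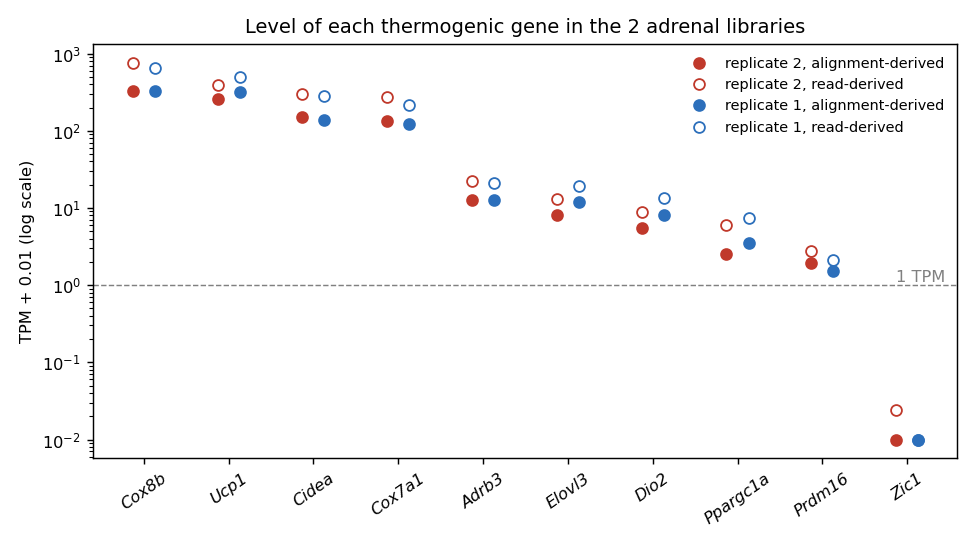
Level of each gene as TPM + 0.01 on a log axis, genes in order of mean level. Filled points are the alignment-derived gene tables and open points the read-derived tables, with replicate 2 in red and replicate 1 in blue; 4 genes stand above 120 TPM, and Zic1 lies at the bottom of the axis.

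Ucp1, the proton carrier that defines thermogenic fat, was at 257.2 TPM in replicate 2 against 319.7 TPM in replicate 1, from 15296 and 17722 expected counts. Its mean of 288 ± 44.2 TPM ranked 116th among the 22015 nuclear protein-coding genes. The log2 ratio of replicate 2 over replicate 1 was -0.31, and the ratio of its shares of all counts was 0.796, with an exact 95% interval of 0.779 to 0.813 that covers counting error only. The deposited TPM intervals ran from 249 to 257 in replicate 2 and from 309 to 318 in replicate 1 and did not overlap. These intervals, whose level is not given in the sources used here, lie around a posterior estimate, and the TPM of Ucp1 in each library stood just above its own. Ucp1 also led its family in both libraries. Ucp2, an uncoupling protein relative of many tissues, stood at 57.2 ± 0.735 TPM and Ucp3, the muscle and brown fat form, at 9.03 ± 0.0495 TPM. Ucp1 exceeded Ucp2 by 4.54 times in replicate 2 against 5.54 times in replicate 1. Slc25a30, a kidney-enriched mitochondrial carrier, was at 63.1 ± 2.97 TPM, Slc25a14 at 3.79 ± 0.247 TPM and Slc25a27 at 0.76 ± 0.184 TPM.

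Cidea coats lipid droplets and helps to set their size in brown fat. It was at 152 TPM in replicate 2 against 139 TPM in replicate 1, from 5981 and 5093 counts, a mean of 145.6 ± 9.32 TPM. The count share ratio was 1.08, with a counting interval from 1.04 to 1.12, so Cidea was slightly higher in the library in which Ucp1 was lower. Cidec, the relative that enlarges the single droplet of white adipocytes and is also made in brown fat, stood at 104.6 TPM in replicate 2 against 91.4 TPM in replicate 1. Cidea exceeded Cidec by 1.45 and 1.52 times in replicates 2 and 1. Cideb, the liver and intestine form, was at 0.255 ± 0.191 TPM.

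Cox8b and Cox7a1 are the forms of 2 subunits of cytochrome c oxidase, the last complex of the respiratory chain, that are made in heart, skeletal muscle and brown fat. Cox8b was the highest of the 10 genes, at 323.6 TPM in replicate 2 against 326.8 TPM in replicate 1, from 3267 and 3076 counts. Cox7a1 stood at 133.5 TPM in replicate 2 against 122 TPM in replicate 1, from 1530 and 1312 counts. The libraries were close for both genes, with log2 ratios of -0.01 and 0.13. The counting intervals of the ratio, 0.932 to 1.03 for Cox8b and 0.998 to 1.16 for Cox7a1, both included 1.

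Since these subunits are also made in muscle, muscle genes are given beside them. Cox6a2, the heart and muscle form of another subunit that is also made in brown fat, stood at 2.09 TPM in replicate 2 against 8.49 TPM in replicate 1. The skeletal actin Acta1 was at 1.11 TPM in replicate 2 against 97.6 TPM in replicate 1, and muscle creatine kinase Ckm at 0.2 and 45.9 TPM. All 13 muscle genes with 200 or more summed counts were 2-fold lower in replicate 2, at a median log2 ratio of -6.34. Besides Acta1, Ckm and Cox6a2 they were Tnnt3, Mylpf, Mb, Tnni2, Tnnc2, Atp2a1, Myh1, Myh2, Ckmt2 and Myh7. In replicate 2, where the 18 muscle genes together held 5.92 TPM, Cox8b was at 323.6 TPM and Cox7a1 at 133.5 TPM. Which cells made the Cox8b and Cox7a1 RNA was not tested. Heart markers were low in both libraries, at a sum of 3.68 TPM in replicate 2 against 4.64 TPM in replicate 1, with 1 of 6 at 1 TPM in both. That gene was Ryr2, a calcium release channel also made in brain, at 2.46 ± 0.184 TPM, followed by Tnnt2 at 0.835 ± 0.0636 TPM and Myh6 at 0.05 TPM in replicate 2 against 1.28 TPM in replicate 1.

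In the alignment-derived tables the muscle-type subunits had mean TPM close to that of their ubiquitous forms. Cox8b was 1.04 times Cox8a in replicate 2 against 1.12 times in replicate 1, with Cox8a at 301.5 ± 12.5 TPM. Cox7a1 was 1.14 times Cox7a2 in replicate 2 against 1.01 times in replicate 1, with Cox7a2 at 119 ± 3.27 TPM. In the read-derived tables Cox8b was 1.05 times Cox8a in replicate 2 against 0.953 times in replicate 1, but Cox7a1 was 0.675 times Cox7a2 in replicate 2 against 0.539 times in replicate 1, so the order of that pair turned round with the table. The ubiquitous subunits Cox4i1 (459.7 ± 7.46 TPM), Cox6a1 (417 ± 23.3 TPM) and Cox6b1 (366 ± 8.69 TPM) led the list. Cox7b stood at 144.8 ± 14.1 TPM and Cox7a2l, a factor that joins respiratory complexes, at 51.6 ± 4.69 TPM. The lung form Cox4i2 was at 0.87 ± 0.0566 TPM and Cox6b2, a testis form, at 2.54 ± 0.247 TPM. The testis forms Cox7b2 and Cox8c were listed at 0 in both libraries.

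Ppargc1a (PGC-1alpha) drives mitochondrial biogenesis and, with the nuclear receptors it binds, Ucp1 transcription. It was at 2.53 TPM in replicate 2 against 3.49 TPM in replicate 1, a log2 ratio of -0.45. Its expected counts were 235 in replicate 2 against 438 in replicate 1, a wider gap. The ratio of count shares was 0.495, with a counting interval from 0.42 to 0.581, so on counts with TMM scaling Ppargc1a was the one gene of the set past 2-fold, and on TPM it was not. The deposited TPM intervals, 1.83 to 3.32 in replicate 2 and 2.76 to 4.33 in replicate 1, overlapped. The other coactivators of the family were higher in replicate 2 on TPM, but their deposited TPM intervals overlapped between the libraries. The counting interval of the ratio was 0.976 to 1.26 for Ppargc1b, which included 1, and 1.02 to 1.22 for Pprc1. Ppargc1b was at 4.23 TPM in replicate 2 against 3.77 TPM in replicate 1, and Pprc1 at 8.68 TPM in replicate 2 against 6.4 TPM in replicate 1.

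The transcripts of Ppargc1a took unequal parts of its counts and of its TPM. Ppargc1a-203, the one of 6464 bases that encodes the full protein of 797 codons, held 166.5 expected counts in replicate 2 and 292 in replicate 1. Ppargc1a-201, an annotated target of nonsense-mediated decay, held 15.7 counts in replicate 2 and 116 in replicate 1. The short fragment Ppargc1a-202, of 488 bases and with an incomplete coding end, held only 21.2 and 13.2 counts but 55.5% of the gene's TPM in replicate 2 and 26.9% in replicate 1. Most counts lay on the full-length transcript in both libraries. Genes annotated inside Ppargc1a on the same strand held more counts in replicate 2, against the direction of Ppargc1a itself. Gm42614, Gm42615 and Gm43605 held 19, 17 and 14 in replicate 2 and 1, 2 and 5 in replicate 1. Their part in the count ratio of Ppargc1a was not tested.

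Prdm16 directs precursors toward brown rather than muscle fate and keeps the brown program on. It was at 1.95 TPM in replicate 2 against 1.51 TPM in replicate 1, from 255 and 201 counts, a mean of 1.73 ± 0.311 TPM. The counting interval of the ratio, 0.968 to 1.41, included 1. Mecom, its near paralogue, stood at 1.93 TPM in replicate 2 against 1.17 TPM in replicate 1, which put Prdm16 at 1.01 times its level in replicate 2 and 1.29 times in replicate 1. Of 13 annotated Prdm16 transcripts, 6 held counts, and Prdm16-202, with a coding length of 3534 bases, held most of the counts, 213 in replicate 2 and 184 in replicate 1. Its share of the TPM was smaller, at 33.8% in replicate 2 and 40.7% in replicate 1, since shorter transcripts hold more TPM for each count.

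Elovl3 and Dio2 are enzymes induced by cold in brown fat. Elovl3 makes very long chain fatty acids, and it stood at 8.04 TPM in replicate 2 against 11.8 TPM in replicate 1, from 514 and 695 counts. Dio2 turns the prohormone thyroxine into active thyroid hormone inside the cell, and it was at 5.5 TPM in replicate 2 against 8.21 TPM in replicate 1, from 1216 and 1692 counts. Both were lower in replicate 2, with log2 ratios of -0.55 and -0.57. The counting intervals of the ratio ran from 0.607 to 0.765 for Elovl3 and from 0.615 to 0.714 for Dio2, and the deposited TPM intervals were apart for both. Elovl3 was far below Elovl5, the elongase of polyunsaturated fatty acids, at 204 ± 25.2 TPM, and below Elovl1 at 34.5 ± 0.742 TPM and Elovl6 at 26.8 ± 1.29 TPM. Elovl7, Elovl4 and Elovl2 stood at 0.845 ± 0.0495, 0.355 ± 0.0636 and 0.135 ± 0.0495 TPM. Of the deiodinases, Dio2 was the one detected, with Dio3, which inactivates the hormone, at 0.2 ± 0.0707 TPM and Dio1 at 0.015 ± 0.0212 TPM.

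Adrb3, the beta-3 adrenergic receptor of adipocytes, was at 12.7 TPM in replicate 2 against 12.5 TPM in replicate 1, from 1002 and 926 counts. Its log2 ratio was 0.03, with a counting interval of the ratio from 0.912 to 1.09. Adrb3 had the highest mean of the 8 adrenoceptor genes listed. Adrb1 was at 1.13 ± 0.184 TPM, and Adrb3 exceeded it by 10.1 times in replicate 2 against 12.5 times in replicate 1. Of the alpha receptors, Adra1d was at 6.3 TPM in replicate 2 against 9.26 TPM in replicate 1, Adra1a at 3.35 ± 0.502 TPM and Adra1b at 0.835 ± 0.0495 TPM. The alpha-2 receptors Adra2b, Adra2c and Adra2a stood at 0.595 ± 0.0354, 0.14 ± 0.0283 and 0.11 ± 0.0141 TPM.

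Zic1, a transcription factor of the dorsal neural tube and trunk that marks the brown fat of the mouse shoulder region, held 0 counts in both libraries. A count of 0 allows up to 3 counts, which is 0.0775 CPM (a count per library total, scaled) for replicate 2 and 0.0841 CPM for replicate 1, or 0.0273 and 0.0293 TPM at the gene's effective length in the file, 2838 bases. The deposited TPM intervals reached higher, to 0.272 in replicate 2 and 0.292 in replicate 1, around a posterior mean of 0.105 TPM over the 2 libraries. The read-derived table listed 2.02 estimated counts in replicate 2 and 0 in replicate 1. The 4 listed genes of the ZIC family were at or under the floor, with Zic2 at 0 counts in replicate 2 and 1 count in replicate 1, and Zic4 and Zic5 at 0 in both. Zic1 was thus not detectable at this depth, in libraries where Ucp1 held 15296 and 17722 counts.

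**Figure D2:**
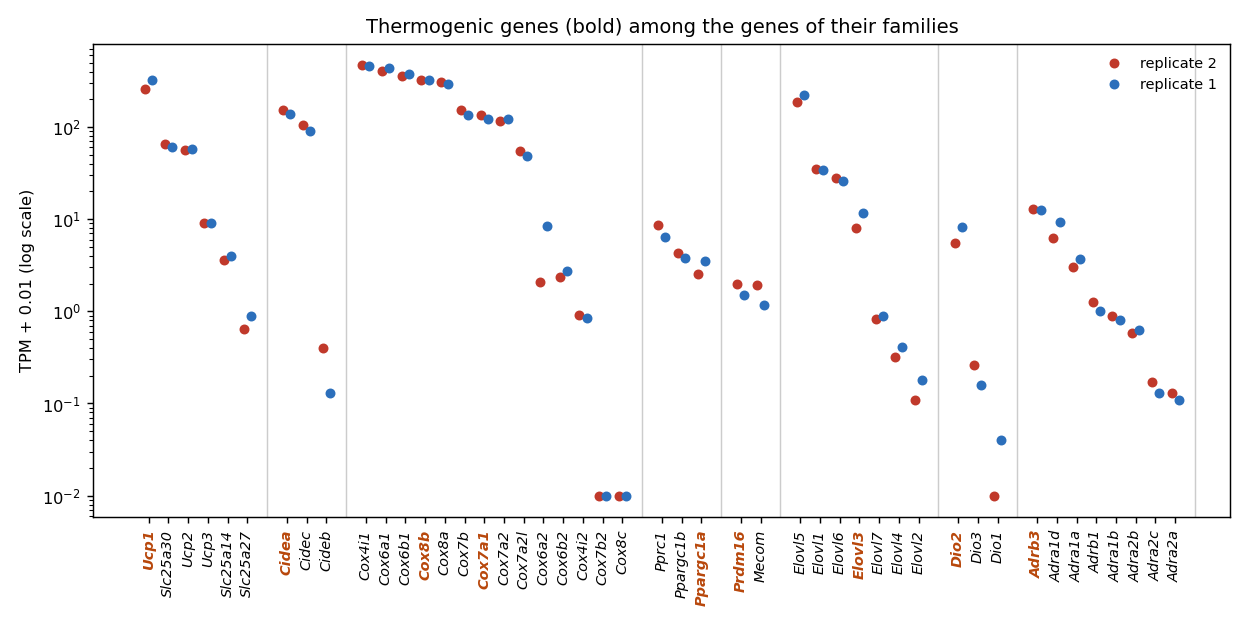
TPM + 0.01 on a log axis for the thermogenic genes (bold) and the other listed genes of their families, with replicate 2 in red and replicate 1 in blue and a grey line between families. Ucp1, Cidea, Dio2 and Adrb3 lead the genes plotted from their families, while Elovl3 lies below 3 other elongases; the ZIC family is left out because 3 of its 4 listed genes had 0 counts in both libraries.

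Between the libraries, 0 of the 9 genes with 200 or more summed counts were 2-fold apart on TPM + 0.1, beside 0.904% of the 12280 genes with as many counts. Their median log2 ratio was -0.01, beside 0.04 over those 12280 genes, whose SD was 0.37. Deposited TPM intervals were apart and lower in replicate 2 for 3 of the 9, Ucp1, Elovl3 and Dio2, beside 5.75% of all genes tested. They were apart and higher in replicate 2 for 1 of the 9, Cidea, beside 9.2%. The 9 genes did not share a direction. The count share ratios of the 3 lower genes were 0.796, 0.682 and 0.663, while Cox8b and Adrb3 lay near equality at 0.979 and 0.998.

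**Figure D3:**
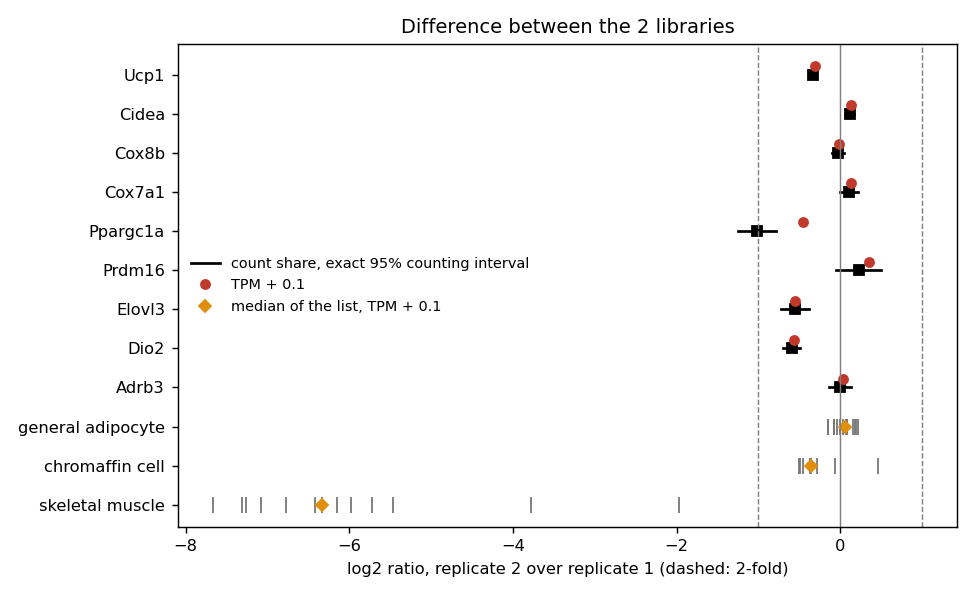
Log2 ratio of replicate 2 over replicate 1 for 9 genes, as shares of counts with exact 95% counting intervals (black) and as TPM + 0.1 (red), with 3 marker lists below (ticks for genes with 200 or more summed counts, diamonds for the median). The dashed lines mark 2-fold; Ppargc1a is the one gene whose count and TPM ratios lie far apart, and the skeletal muscle genes lie far to the left.

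General adipocyte markers were set beside these ratios. The 14 general adipocyte markers with 200 or more summed counts had a median log2 ratio of 0.05 and ranged from -0.15 to 0.22. Several of them, such as Pnpla2, Lipe and Acsl1, are also in the list of lipolysis and fatty acid supply below, a pathway the cortex also uses. Relative to Adipoq, the adiponectin gene, Ucp1 stood at 2.93 times in replicate 2 against 3.85 times in replicate 1. Dio2 stood at 0.0626 times Adipoq in replicate 2 against 0.0989 times in replicate 1, and Elovl3 at 0.0915 and 0.142 times. By contrast Cidea was at 1.73 times Adipoq in replicate 2 against 1.67 times in replicate 1, Cox8b at 3.68 and 3.94 times and Adrb3 at 0.145 and 0.15 times. Chromaffin cell markers, the catecholamine source in this gland, had a median log2 ratio of -0.36 over 8 genes, from -0.50 to 0.46, and their part in the lower Ucp1, Dio2 and Elovl3 was not tested.

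Transcript pairs of Cox7a1, Elovl3 and Adrb3 that differ at 1 coding end are shown next, because the deposited tables divide the RNA of these genes differently. The coding ends of Ppargc1a and Prdm16 also vary, and transcripts can differ outside the coding sequence too. Capitals mark the stretch between the coding end and the part the pair shares, in which some bases, such as the start codon, are still the same, and 15 shared bases are in lower case, all 5′ to 3′ on the coding strand from GENCODE M21 on mm10. The Cox7a1 and Elovl3 pairs differ at the start of the coding sequence, and the Adrb3 pair at its end. Each stretch crosses an intron.
Cox7a1-201, chr7:30184231-30185098, plus strand: ATGAGGGCCCTACGggtctcccaggctct
Cox7a1-202, chr7:30184298-30185098, plus strand: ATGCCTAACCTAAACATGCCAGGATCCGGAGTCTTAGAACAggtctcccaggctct
Elovl3-201, chr19:46132233-46133137, plus strand: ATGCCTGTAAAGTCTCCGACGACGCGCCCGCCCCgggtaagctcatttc
Elovl3-202, chr19:46132070-46133137, plus strand: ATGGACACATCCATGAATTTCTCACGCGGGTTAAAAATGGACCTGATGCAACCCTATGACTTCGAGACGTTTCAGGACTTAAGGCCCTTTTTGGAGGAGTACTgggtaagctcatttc
Adrb3-201, chr8:27226757-27227271, minus strand: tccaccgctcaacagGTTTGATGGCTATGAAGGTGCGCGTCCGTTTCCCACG
Adrb3-202, chr8:27226848-27227271, minus strand: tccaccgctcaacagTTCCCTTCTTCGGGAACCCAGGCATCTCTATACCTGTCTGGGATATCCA

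Cox7a1-201 has a coding length of 240 bases and Cox7a1-202 of 267, and the last 226 bases are the same. In the alignment-derived table Cox7a1-201 held 97.6% of the gene's TPM in replicate 2 and 95.7% in replicate 1. In the read-derived table it held 78.2% in replicate 2 and 73.1% in replicate 1. The shares of the 2 libraries were close in each table and farther apart between the tables. For Cox7a1-202 the read-derived table listed 264 estimated counts in replicate 2 and 248 in replicate 1, against 47.6 and 72.6 in the alignment-derived one.

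Elovl3-201 and Elovl3-202, of 744 and 813 coding bases, share the last 710. Elovl3-201 held 45.2% of the TPM in replicate 2 and 51.3% in replicate 1 in the alignment-derived table, and 70.3% and 72.8% in the read-derived one. In replicate 2 the leading transcript therefore changed with the table, whereas in replicate 1 Elovl3-201 led in both tables. Adrb3-201 and Adrb3-203 differ outside the coding sequence and encode the same 400 codons. Together they held 88.4% of the TPM in replicate 2 and 88.7% in replicate 1, and 87.7% and 93.5% in the read-derived table. Adrb3-203 alone held 46.9% in replicate 2 and 42.8% in replicate 1, and 29.7% and 33.0% in the read-derived table. Adrb3-202 shares the first 1163 coding bases and ends in 49 bases of its own, where Adrb3-201 has 37. It held 5.26% of the TPM in replicate 2 and 2.8% in replicate 1, from 32.2 counts in replicate 2, and 8.7% and 5.14% in the read-derived table. Ucp1, Cidea, Cox8b and Dio2 each had 1 annotated transcript.

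**Figure D4:**
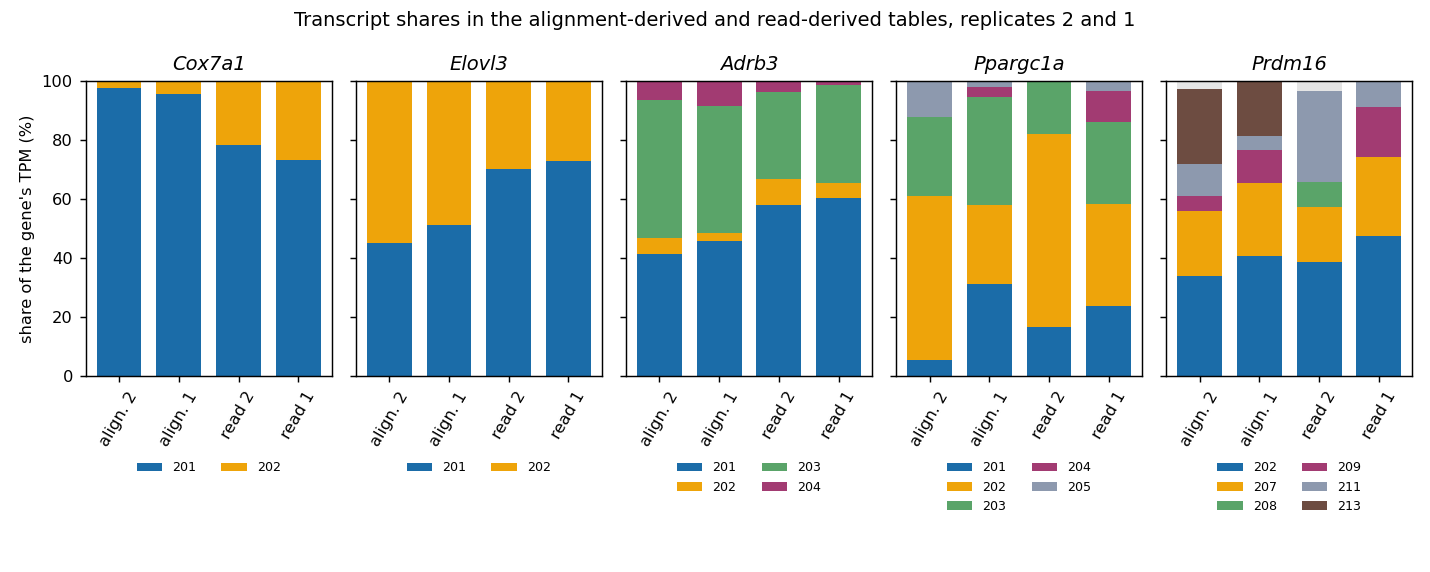
Share of each gene's TPM (%) held by its annotated transcripts, for the alignment-derived (align.) and read-derived (read) tables of replicates 2 and 1; transcripts under 5% in every column are grouped in grey. Cox7a1 and Elovl3 shift between tables more than between libraries, and Ppargc1a shifts between libraries.

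The read-derived tables gave higher TPM, with a median log2 ratio of read-derived over alignment-derived TPM + 1 of 0.72 over 12280 genes and 0.74 over the 9 genes here. Cox8b was the one gene of the set 2-fold apart between the tables, at 1.11, beside 18.5% of all genes tested. None of the 9 was 2-fold from the median gene, beside 3.15% of all genes. Cox8b stood at 758.7 read-derived TPM in replicate 2 against 646 TPM in replicate 1. It had fewer read-derived counts, however, with 1730 in replicate 2 and 1469 in replicate 1, which is 0.53 and 0.478 times the expected counts. Cox7a1 behaved alike, with 0.552 and 0.513 times the expected counts. These are the shortest leading transcripts of the set among genes with 1 main form, of 360 and 393 bases. The effective length that divides the counts was 83.8 and 88.9 bases for Cox8b in the read-derived tables of replicates 2 and 1, against 261 bases in the alignment-derived tables. For Ucp1, of 1636 bases, it was 1307 bases in the read-derived tables against 1537 bases in the alignment-derived ones. Ucp1 stayed above Ucp2 in both tables, by 3.03 times in replicate 2 against 3.52 times in replicate 1 in the read-derived ones.

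In mm10 with GENCODE M21, 2 of the genes are on chromosome 8, Ucp1 (ENSMUSG00000031710.4, 83290352 to 83298452, plus strand) and Adrb3 (ENSMUSG00000031489.15, 27225776 to 27250616, minus strand). Another 2 are on chromosome 7, Cox8b (ENSMUSG00000025488.9, 140898945 to 140900446, minus strand) and Cox7a1 (ENSMUSG00000074218.3, 30184144 to 30186078, plus strand). Ppargc1a (ENSMUSG00000029167.13) spans 51454250 to 51567726 on the minus strand of chromosome 5, and Prdm16 (ENSMUSG00000039410.16) 154316125 to 154636873 on the minus strand of chromosome 4. Elovl3 (ENSMUSG00000038754.5) lies on chromosome 19 from 46131897 to 46135694, plus strand, and Dio2 (ENSMUSG00000007682.6) on chromosome 12 from 90724552 to 90738438, minus strand. Zic1 (ENSMUSG00000032368.14) lies on chromosome 9 from 91358058 to 91365810, minus strand, and Cidea (ENSMUSG00000024526.9) on chromosome 18 from 67343604 to 67367785, plus strand. All values are totals over the exons of a gene's transcripts. Ucp1, Cox8b and Cox7a1 overlap no other annotated gene. The others overlap genes with few counts, the most being Gm45470, antisense to Adrb3, with 38 counts in replicate 2 and 28 in replicate 1. Whether strand was used in counting is not given in the sources used here, so reads of such partners cannot be told apart.

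Most genes of the further brown fat lists were detected, beside 53% of nuclear protein-coding genes, and medians below are over every gene of a list. Of 16 brown adipocyte markers, 7 of which belong to the set above, 13 were detected, at a median of 10.2 TPM. Otop1, a proton channel gene enriched in brown fat, stood at 11.9 ± 0.106 TPM, Pdk4, a brake on glucose oxidation, at 91.4 ± 11.3 TPM and Ebf2, an early factor of the brown lineage, at 2.49 ± 0.29 TPM. Below 1 TPM were the homeobox gene Lhx8, at 0.21 TPM in both libraries, and Epsti1, at 0.46 ± 0.0566 TPM. One marker was 2-fold apart, Slc27a2, an acyl-CoA synthetase of very long chain fatty acids, at 12.4 TPM in replicate 2 against 6 TPM in replicate 1. The list's lowest log2 ratio, -0.84, was that of Fabp3, a fatty acid binding protein also made in heart and skeletal muscle, at 14.9 TPM in replicate 2 against 26.6 TPM in replicate 1, with deposited intervals apart. Of 12 white adipocyte markers 7 were detected, at a median of 1.59 TPM, led by Retn (27.6 ± 0.488 TPM), Nnat (15.9 ± 0.969 TPM) and Dpt (9.74 ± 1.46 TPM). Leptin, the hormone of white fat, was at 0.46 TPM in replicate 2 against 0.63 TPM in replicate 1. Of 9 beige markers 4 were detected, at a median of 0.375 TPM, led by Slc36a2 (26.4 ± 1.004 TPM), Klhl13 (4.97 ± 0.615 TPM) and P2rx5 (1.64 ± 0.481 TPM).

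Of 30 brown fat regulators outside the set, 29 were detected, at a median of 9.69 TPM. The highest were Cebpb (182 ± 13.8 TPM), Nfia (57.7 ± 5.99 TPM) and Cebpa (44.9 ± 1.03 TPM), transcription factors with roles in many tissues. Of 28 with 200 or more summed counts, 1 was 2-fold apart. It was Irf4, which in brown fat works with PGC-1alpha on Ucp1, at 8.9 TPM in replicate 2 against 1.05 TPM in replicate 1, from 1245 and 132 counts. Ppargc1a and Ucp1 were lower in the library in which Irf4 was higher. Irf4 is also a lymphocyte gene. The 8 lymphocyte markers, a list added after these values were seen, summed to 0.67 TPM in replicate 2 against 0.86 TPM in replicate 1, with none at 1 TPM. Which cells made the Irf4 RNA, and any link to Ppargc1a or Ucp1, was not tested.

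The receptor and cAMP arm was present nearly whole, with 17 of 18 genes detected, a median of 19.7 TPM and a median log2 ratio of 0.01 over 17 genes. Gnas, the stimulatory G protein, led it at 783 ± 15.9 TPM, with the kinase subunits Prkar2b at 130.1 ± 4.74 TPM and Prkar1a at 128.5 ± 1.07 TPM. These genes also serve the corticotropin response of the cortex. None of the 17 genes with enough counts was 2-fold apart, the receptor Adrb1 among them. Of the 9 genes of the thyroid hormone arm, 6 were detected and 0 of 6 with enough counts were 2-fold apart, led by the corepressor Ncor1 (55.9 ± 1.48 TPM) and the receptors Thrb (29.7 ± 1.78 TPM) and Thra (26.4 ± 2.06 TPM).

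Fuel genes were high. All 19 genes of lipolysis and fatty acid supply were detected at a median of 51.4 TPM, led by Fabp4 (769 ± 28.9 TPM), the lipase Pnpla2 (251.7 ± 19.9 TPM) and the transporter Cd36 (162.7 ± 0.735 TPM), and Slc27a2 was the one 2-fold apart. All 16 genes of fatty acid oxidation were detected at a median of 157.9 TPM, led by Hadhb (288 ± 20.1 TPM), Acadm (249.7 ± 26.9 TPM) and Acadl (185 ± 9.78 TPM), with 0 of 16 being 2-fold apart. The cortex also uses both pathways. Of 18 secreted factors of brown fat, 14 were detected, and the list had a median of 7.02 TPM, led by Vegfa (93.995 ± 8.87 TPM), Adipoq (85.4 ± 3.39 TPM) and Ephx1 (41.4 ± 1.36 TPM), and 0 of 12 with enough counts were 2-fold apart.

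Among 17 genes of heat-producing cycles other than Ucp1, 14 were detected, at a median of 9.91 TPM. The nucleotide carriers Slc25a5 (146.7 ± 0.212 TPM) and Slc25a4 (60.4 ± 2.5 TPM) and the creatine synthesis enzyme Gamt (93.0 ± 2.01 TPM) led the list. Of 16 with enough counts, 3 were 2-fold lower in replicate 2. They were the calcium pump Atp2a1, at 0.1 TPM in replicate 2 against 27.0 TPM in replicate 1, the mitochondrial creatine kinase Ckmt2, at 0.02 and 7.5 TPM, and the calcium release channel Ryr1, at 0.07 and 2.43 TPM. Atp2a1 and Ckmt2 are also in the skeletal muscle list, and all 3 moved with it. In replicate 2, the library with few muscle counts, Ckmt2 held 1 count. Which cells made the RNA of these 3 genes was not tested.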

How the data were processed

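Each library came with 3 tables. Per the file headers, the gene and alignment-derived transcript tables hold an expected count (not always whole), its standard deviation, TPM and the bounds of a TPM interval, the last read as a signal; the column names are those RSEM writes, and the text deposited beside them names mm10 and GENCODE M21. The deposited TPM share 1 fixed sum among all entries of a table, so abundant entries of any kind lower the values of the others. The read-derived table deposited by the authors holds an estimated count and TPM under kallisto's column names. Tool versions, filters and the use of strand: not given in the sources used here.

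Genes were matched by the identifiers in the read-derived table. Levels are means and SDs over 2 libraries; the ratio is replicate 2 over replicate 1 of TPM + 0.1, called 2-fold apart with 200 or more summed counts. Counting intervals are exact 95% (Clopper-Pearson) on rounded expected counts; they, and the 3 counts that a 0 allows, cover counting error only. No p-value was computed. TMM factors came from edgeR 4.0.16 and size factors from DESeq2 1.42.0 in R 4.3.3, for genes whose count was at least 10 in each library. Python 3.11.15, numpy 2.4.6, pandas 2.3.3, scipy 1.17.1 and matplotlib 3.10.9 did the rest. The ratio and its call were tested on simulated data.

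The genes and the lists were chosen with earlier results of these data known, and 1 of the 29 lists was added last. Named are the 10 genes, their families, in each other list the 3 highest and every gene 2-fold apart, and, where a list has none at 1 TPM, its highest. A few genes were left out of the lists and are not reported here. Lep, Fabp3, Otop1, Pdk4, Ebf2, Lhx8 and Epsti1 were named after their values were seen. Promoters are RefSeq's, on GRCm38.p6.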

Additional observations from a re-analysis of the deposited data

How the results depend on the processing

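The count of 9 detected genes was 9 at 0.5 TPM, 7 at 5 TPM, 9 in either library alone and 9 in the read-derived tables. The median level of 11.3 TPM became 36.1 TPM when rescaled over nuclear protein-coding genes and 18.9 TPM in the read-derived tables, and was 10.4 to 12.1 TPM with a library left out. The median log2 ratio of -0.01 was -0.14 when scaled by ERCC spike-in totals, and lay between -0.07 and 0.09 under the other 7 alternatives, 1 of them (relative to general adipocyte markers) chosen after seeing the data. On TMM-scaled counts 1 gene of the set, Ppargc1a, was 2-fold apart instead of 0. Over all genes the count of 111 became 298 at 50 or more summed counts, 1913 with no filter and 73 with TPM + 1. Between the quantifications the count of 1, Cox8b, became 2 with TPM + 0.1 (Cox8b and Ppargc1a), ranged from 0 to 2 with a library left out, and was 0 relative to the median gene, an alternative also chosen after seeing the data. The causes were not tested. Under all 8 alternatives the log2 ratio kept its sign for Ucp1 (-0.44 to -0.31), Elovl3 (-0.66 to -0.50), Dio2 (-0.71 to -0.50) and Ppargc1a (-1.11 to -0.31). The sign also held for Prdm16 (0.11 to 0.37) and Cidea (0.0015 to 0.13), but Cidea was near equality, at 0.0015, when scaled by ERCC spike-in totals. The sign turned in 4 of 8 for Adrb3 (-0.12 to 0.09) and in 1 of 8 each for Cox8b (-0.14 to 0.23) and Cox7a1 (-0.01 to 0.33). No paired analysis was possible because there is 1 group. Depth limits Zic1, Prdm16 and the minor transcripts, and 2 libraries limit every SD.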
